A study of Mus musculus with 44 samples.

Results

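The proteasome genes described here are the protein-coding genes of GENCODE release M21 (mouse, GRCm38) whose symbol begins with Psma, Psmb, Psmc, Psmd, Psme, Psmf or Psmg followed by a digit. This rule found 50 genes among the 21832 protein-coding genes listed in all 44 deposited count files. Of the 50, 5 are the immune subunits Psmb8, Psmb9, Psmb10, Psme1 and Psme2, and 45 are other members. One member, Psmc3ip, carries a proteasome-like symbol but is not a proteasome subunit, and it was kept because the rule finds it. The tissue was dorsal cortex with hippocampus, taken on postnatal days 28 to 29. Every mouse, controls included, was labelled CX3CR1-CreERT2 (+/-) x RPL10a-GFP flox (+/-), so that tamoxifen switches on a GFP-tagged ribosomal protein in cells with Cx3cr1 promoter activity, which in brain are microglia and also border macrophages. The design text of the series gives the tagged allele as fl/fl. Tamoxifen was given at 100 mg/kg on postnatal days 15, 17 and 19, and the control is called vehicle in the labels and untreated in the design text. Translating ribosome affinity purification (TRAP) pulls down the tagged ribosomes with their RNA. Input was total RNA of the homogenate, MG_TRAP its pulldown, SN_input total RNA of the synaptosome fraction, and PeMP_TRAP the pulldown from that fraction, titled SN_TRAP in the second set. Controls had 3 libraries per fraction (replicates A to C) and tamoxifen 8 (D to K), of which D to F belong to the first set with the controls and G to K to a second set. The labels do not say that a letter is 1 animal, so p-values measure the spread between these libraries, which may be technical.

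The proteasome is the main protease of the cytosol and nucleus for proteins tagged with ubiquitin. A barrel-shaped core of alpha (Psma) and beta (Psmb) rings is capped by a regulatory particle made of ATPases (Psmc), other base subunits and a lid (Psmd), or by separate activators (Psme). Protein cutting is done by the beta subunits Psmb5, Psmb6 and Psmb7, and interferon and other immune signals induce Psmb8, Psmb9 and Psmb10, which take their places respectively in the immunoproteasome. Psme1 and Psme2 together form the interferon-inducible activator PA28, and the related caps Psme3 and Psme4 sit on nuclear proteasomes. The immunoproteasome is best known for making peptides for MHC class I, and in brain it is described in glia, microglia among them.

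The immune members lie in small neighbourhoods of the genome. Psmb9 (chr17:34181987-34187764, minus strand) and Psmb8 (chr17:34197721-34201454, plus strand) are 9956 bases apart. Psme1 (chr14:55578123-55581529, plus strand) and Psme2 (chr14:55587441-55591113, minus strand) are 5911 bases apart, while Psmb10 stands alone (chr8:105935735-105938444, minus strand). Their counterparts are Psmb5 (chr14:54614119-54618022, minus strand), Psmb6 (chr11:70525367-70527858, plus strand) and Psmb7 (chr2:38588036-38644087, minus strand). Exons of Psmb5 share 109 bases with Mir686 on the same strand. Exons of Psmb8 share 498 bases with Gm20496 on the other strand, and those of Psmb9 share 212 bases with Tap1 on the other strand. Exons of Psme1 share 14 bases with Emc9 and those of Psmb7 share 405 bases with Nek6, also on the other strand. The strand setting of the counting is not given in the sources used here, so reads in those bases cannot be told apart. Psme2b is a retrogene copy whose transcript is identical to that of Psme2 at 99.37% of 794 aligned bases, so the split of reads between the pair is uncertain.

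Promoter windows were read for the immune genes and a constitutive counterpart. The RefSeq windows (GRCm38.p6, 250 bases before to 50 bases after the annotated start, 5′ to 3′ on the gene's strand) are given for Psmb8 and Psmb9, the members with the largest differences in MG_TRAP against Input, for Psme1, the immune gene whose window holds the interferon motif, and for Psmb5, which Psmb8 replaces. Capitals mark a match on either strand to 1 of 3 motifs: the gamma-activated site TTCNNNGAA in Psmb8 (chr17:34197945-34198244), the interferon-stimulated response element (a pair of GAAA runs with any 2 bases between them) in Psme1 (chr14:55578244-55578543, where it reads on the reverse strand), and the antioxidant response element core TGACNNNGC in Psmb5 (chr14:54617946-54618245). The window of Psmb9 (chr17:34187281-34187580) has none of the 3. The windows of Psmb8, Psmb9 and Psme1 lie wholly inside the gene spans given above, so they do not cover bases before the GENCODE starts.
Psmb8: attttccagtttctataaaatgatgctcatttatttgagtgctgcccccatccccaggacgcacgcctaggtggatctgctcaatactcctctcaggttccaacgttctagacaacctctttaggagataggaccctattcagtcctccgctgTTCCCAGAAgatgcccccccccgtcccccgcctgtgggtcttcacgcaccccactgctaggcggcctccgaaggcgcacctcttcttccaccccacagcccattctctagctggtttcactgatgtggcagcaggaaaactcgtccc
Psmb9: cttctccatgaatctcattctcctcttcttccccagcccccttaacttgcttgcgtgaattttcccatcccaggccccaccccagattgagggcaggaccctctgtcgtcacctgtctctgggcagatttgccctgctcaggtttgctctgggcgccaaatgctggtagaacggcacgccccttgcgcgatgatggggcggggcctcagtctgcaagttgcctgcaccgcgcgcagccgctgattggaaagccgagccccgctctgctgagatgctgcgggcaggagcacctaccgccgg
Psme1: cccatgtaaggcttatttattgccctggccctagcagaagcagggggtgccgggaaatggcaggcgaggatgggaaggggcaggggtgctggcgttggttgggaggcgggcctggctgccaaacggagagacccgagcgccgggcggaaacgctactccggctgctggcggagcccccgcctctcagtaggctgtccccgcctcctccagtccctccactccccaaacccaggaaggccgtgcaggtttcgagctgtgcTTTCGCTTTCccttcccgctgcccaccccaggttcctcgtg
Psmb5: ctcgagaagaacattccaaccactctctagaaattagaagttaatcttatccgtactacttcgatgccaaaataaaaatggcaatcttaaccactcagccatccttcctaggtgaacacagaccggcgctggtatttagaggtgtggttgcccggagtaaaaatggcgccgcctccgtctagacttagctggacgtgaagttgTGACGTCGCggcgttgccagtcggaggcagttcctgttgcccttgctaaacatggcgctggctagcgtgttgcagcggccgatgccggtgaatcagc

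Such matches are common. Of 32851 promoter windows of the same length, 3.443% hold the interferon-stimulated response element, 8.298% hold TTCNNNGAA and 12.39% hold TGACNNNGC. Windows were found for 42 of the 50 members. Among these, the interferon-stimulated response element occurred in Psmb3, Psmd4, Psmd9, Psme1 and Psmg4, TTCNNNGAA in Psmb8, Psmd2 and Psmg1, and TGACNNNGC in Psmb5, Psmb6, Psmc6, Psmd12, Psmd9 and Psme4. A match describes letters only and is not a measured binding site.

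Libraries held 746616 to 35584637 reads assigned to genes, and 0.155% to 0.755% of those reads fell on the 50 members. Levels below are reads scaled to the library total (CPM), while tests scaled libraries by TMM, so a fold change can differ from the ratio of the CPM values. In tamoxifen Input, levels per kilobase of exon ran from 228 CPM per kb (median of 8) for the base ATPase Psmc5 down to the immune catalytic subunits Psmb8 (rank 47 of 50, 0.76 CPM per kb) and Psmb9 (rank 48, 0.27 CPM per kb). Below these stood only Psmb11, the thymic core subunit, and Psma8, the core subunit of testis. The counterparts Psmb5 (138 CPM per kb) and Psmb6 (133 CPM per kb) ranked 3 and 4. The other immune genes stood far above Psmb8 and Psmb9, with Psmb10 at 58.0, Psme1 at 19.6 and Psme2 at 17.5 CPM per kb. Between 0 and 5 members had no counts in libraries of Input, MG_TRAP and SN_input, against 5 to 7 in control PeMP_TRAP, 2 to 5 in first-set tamoxifen PeMP_TRAP and 9 to 16 in second-set PeMP_TRAP. Those 5 second-set libraries were deep (20442643 to 35584637 reads) but listed only 5372 to 7369 genes with a count. There 29 of the 50 members were at 0 in at least 1 library. Psmd5, a base assembly chaperone, was at 0 in all 5, as were Psma8 and Psmb11, and Psmc6, Psmg2, Psmg3 and Psmg4 were at 0 in 4. Psmb9 had 0 counts in replicate G and 12952 in replicate H. The immune members Psmb8, Psmb10, Psme1 and Psme2 were counted in all 5. Values of PeMP_TRAP below rest in part on these libraries, and results with the first set alone are given in the paragraphs on fractions, ratios, markers and related genes.

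**Figure D1:**
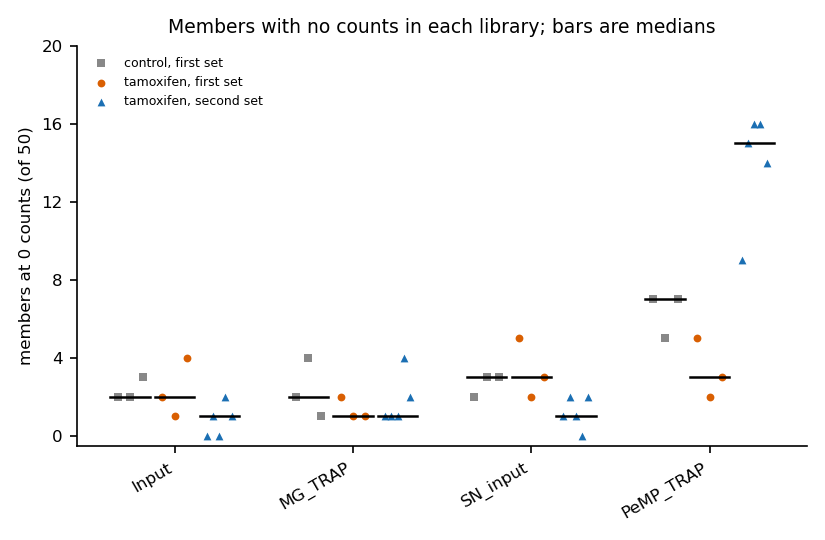
Members with 0 counts in each of the 44 libraries, by fraction (x axis) and by treatment and set (colour and marker), with bars at the medians. The 5 second-set PeMP_TRAP libraries lie between 9 and 16 and every other library at 7 or below.

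In the pulldown from homogenate, 4 of the 5 immune members were higher than in its total RNA. In tamoxifen Input, Psmb8 stood at 0.305 to 3.92 CPM (median 2.57, n = 8, 1 to 57 reads per library), and in MG_TRAP at 115 to 325 CPM (median 168, n = 8). The groups were far apart, and Psmb8 was higher in MG_TRAP by 6.63 on the log2 scale (SE 0.71, edgeR adjusted p = 4.52e-09). Psmb9 lay between 0 and 1.73 CPM in Input (median 1.00) and between 33.5 and 165 CPM in MG_TRAP (median 80.0), a difference of 6.85 (SE 1.16, edgeR adjusted p = 6.39e-05). The PA28 genes began from higher levels. Psme1 lay between 30.6 and 82.7 CPM (median 43.2) in Input and between 129 and 522 CPM (median 260) in MG_TRAP, a log2 difference of 2.74 (SE 0.48, edgeR adjusted p = 1.20e-04). Psme2 lay between 2.75 and 39.4 CPM (median 30.8) in Input and between 78.5 and 185 CPM (median 144) in MG_TRAP, a log2 difference of 2.98 (SE 0.54, edgeR adjusted p = 1.54e-04). Psmb10 was the exception among the 5. Its 79.9 to 122 CPM in Input and 143 to 264 CPM in MG_TRAP did not overlap, yet the log2 difference of 1.19 (SE 0.40) did not pass (edgeR adjusted p = 0.0641), and passed in 3 of 17 alternatives. All 5 immune genes were higher in MG_TRAP than in the Input of the same letter in 8 of 8 letters.

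The constitutive counterparts gave no call in that comparison. Psmb5 had medians of 124 CPM in Input and 77.0 CPM in MG_TRAP (log2 difference -0.21, SE 0.51), Psmb6 of 248 and 227 CPM (0.57, SE 0.42), and Psmb7 of 44.3 and 26.8 CPM (-0.23, SE 0.66). The other activators Psme3 (-0.12, SE 0.71) and Psme4 (0.47, SE 1.05) did not pass either. Among the 44 tested members other than the 5 immune genes, 2 were higher and 0 lower. These were Psme2b, at 0 to 1.87 CPM in Input and 7.45 to 14.8 CPM in MG_TRAP (log2 difference 4.0, edgeR adjusted p = 0.00483), and Psma8, which had 0 counts in 5 of 8 Input and 2 of 8 MG_TRAP libraries and reached 248 reads in replicate D (log2 difference 5.56, edgeR adjusted p = 0.0257). The Psma8 call was lost without replicate D, E, F, G or I. With most Input libraries at 0 counts, the fold change of Psma8 depends on the small number of reads added in the fit. Of the 49 tested members, then, 6 were higher and 0 lower in MG_TRAP, where 4.67% of all 15710 tested genes were higher and 2.15% lower. Groups did not overlap for 6 members that were higher and for 1 that was lower, the base ATPase Psmc1 (over all genes tested, 4.37% and 3.97%). By role, with Psma8 and Psme2b counted apart, 0 of 7 core alpha subunits, 0 of 4 non-catalytic beta subunits, 0 of 9 base subunits, 0 of 8 lid subunits and 0 of 7 assembly chaperones passed. The median log2 difference was 2.98 over the 5 immune genes, 0.15 over the other 44 and -0.14 over all tested genes. RLE scaling moved the median of all genes by -0.52 and total counts by -0.32, and under both 6 members were higher and 0 lower. With the first set alone, Psmb8 (7.40, edgeR adjusted p = 7.89e-04) and Psmb9 (7.95, edgeR adjusted p = 0.00158) passed, and Psme1 (2.98, edgeR adjusted p = 0.111) and Psme2 (3.68, edgeR adjusted p = 0.11) did not.

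**Figure D2:**
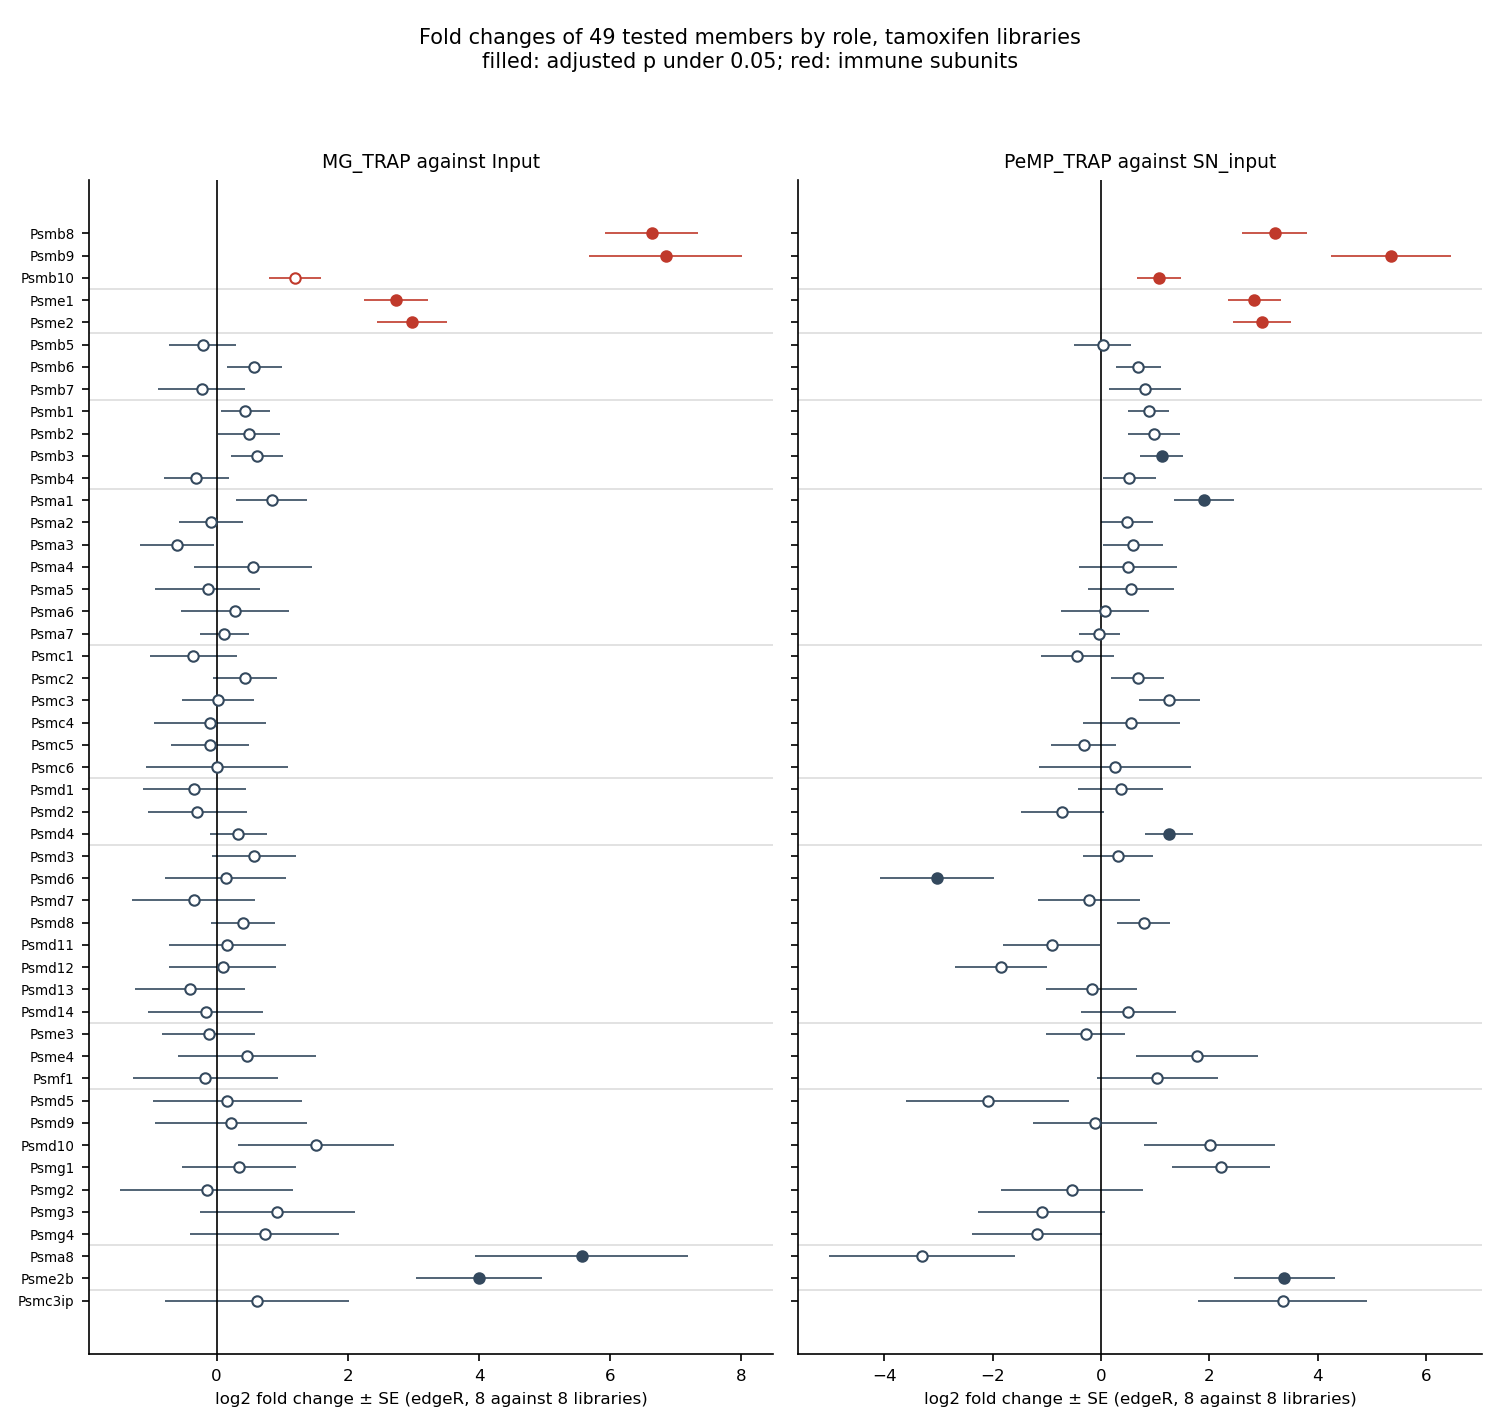
Log2 fold change ± SE (x axis) of the 49 tested members, ordered by role from immune subunits at the top (y axis), in MG_TRAP against Input (left) and PeMP_TRAP against SN_input (right), 8 tamoxifen libraries each. Filled points have an edgeR adjusted p under 0.05 and red marks immune subunits; Psmb8 is at 6.63 on the left and 3.20 on the right.

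All 5 immune members were higher in the pulldown from the synaptosome fraction than in its total RNA. In SN_input, Psmb8 stood at 3.11 to 110 CPM (median 15.98, n = 8) and in PeMP_TRAP at 45.8 to 422 CPM (median 169). Replicate D alone set the top of SN_input, since the other 7 libraries reached 19.98 CPM at most. The log2 difference for Psmb8 was 3.20 (SE 0.60, edgeR adjusted p = 1.86e-04), with PeMP_TRAP higher in 8 of 8 letters. Psmb9 ranged from 0 to 11.9 CPM (median 5.24) in SN_input and from 0 to 556 CPM (median 79.8) in PeMP_TRAP, with a log2 difference of 5.35 (SE 1.10, edgeR adjusted p = 4.45e-04) and PeMP_TRAP higher in 7 of 8 letters. Psme1 rose from a median of 47.7 to 277 CPM (log2 difference 2.83, SE 0.49, edgeR adjusted p = 8.33e-05). PeMP_TRAP was higher in 7 of 8 letters for Psme1, with no rise in replicate G, and in 8 of 8 for Psme2 and Psmb10. Psme2 rose from a median of 50.2 to 231 CPM (2.97, SE 0.54, edgeR adjusted p = 1.37e-04). Psmb10 rose less, from a median of 94.3 to 185 CPM (1.07, SE 0.40, edgeR adjusted p = 0.0361), and its call was lost under 10 of 17 alternatives, among them RLE scaling and leaving out replicate E, G, H, I or K. Within the first set alone, Psmb9 passed (8.44, edgeR adjusted p = 0.00842), while Psmb8 (3.28, edgeR adjusted p = 0.0917), Psme1 (3.46, edgeR adjusted p = 0.0519) and Psme2 (4.30, edgeR adjusted p = 0.0529) did not. Psmb10 (1.14, edgeR adjusted p = 0.440) did not pass there either. Psmb9 was not called by limma voom (adjusted p = 0.154).

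Of the other 44 tested members, 4 were higher in PeMP_TRAP than in SN_input and 1 was lower. Psme2b (3.38), the core subunit Psma1 (1.90), the ubiquitin receptor Psmd4 (1.26) and the core subunit Psmb3 (1.12) were higher, and the lid subunit Psmd6 fell by 3.03 on the log2 scale (edgeR adjusted p = 0.0238). Psmd6 had 31.5 to 113 CPM in SN_input (median 47.6), against 0 to 58.1 CPM in PeMP_TRAP (median 0.984) with 0 counts in replicates H, I and J. The Psmd6 call was lost without replicate K, with the first set alone, and with the 2 groups fitted alone. Psmd4 and Psmb3 passed in 5 and 7 of 17 alternatives. With the first set alone, Psme2b (4.83), Psma1 (1.90), Psmd4 (1.93) and Psmb3 (1.55) did not pass. Counterparts gave no call: Psmb5 had a log2 difference of 0.03 (SE 0.53), Psmb6 of 0.69 (SE 0.42), Psmb7 of 0.82 (SE 0.67), Psme3 of -0.28 (SE 0.73) and Psme4 of 1.77 (SE 1.13). With the second set alone Psmb5 was lower (-0.99, edgeR adjusted p = 0.0157). In all, 9 of 49 members were higher and 1 lower (6 and 2 with RLE scaling, which moved the median of all genes by -0.34), where 6.15% of all tested genes were higher and 26.1% lower. No member had groups that did not overlap (0.547% of all genes higher, 3.02% lower). The median log2 difference was 2.97 over the 5 immune genes, 0.49 over the other 44 and -0.75 over all tested genes.

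**Figure D3:**
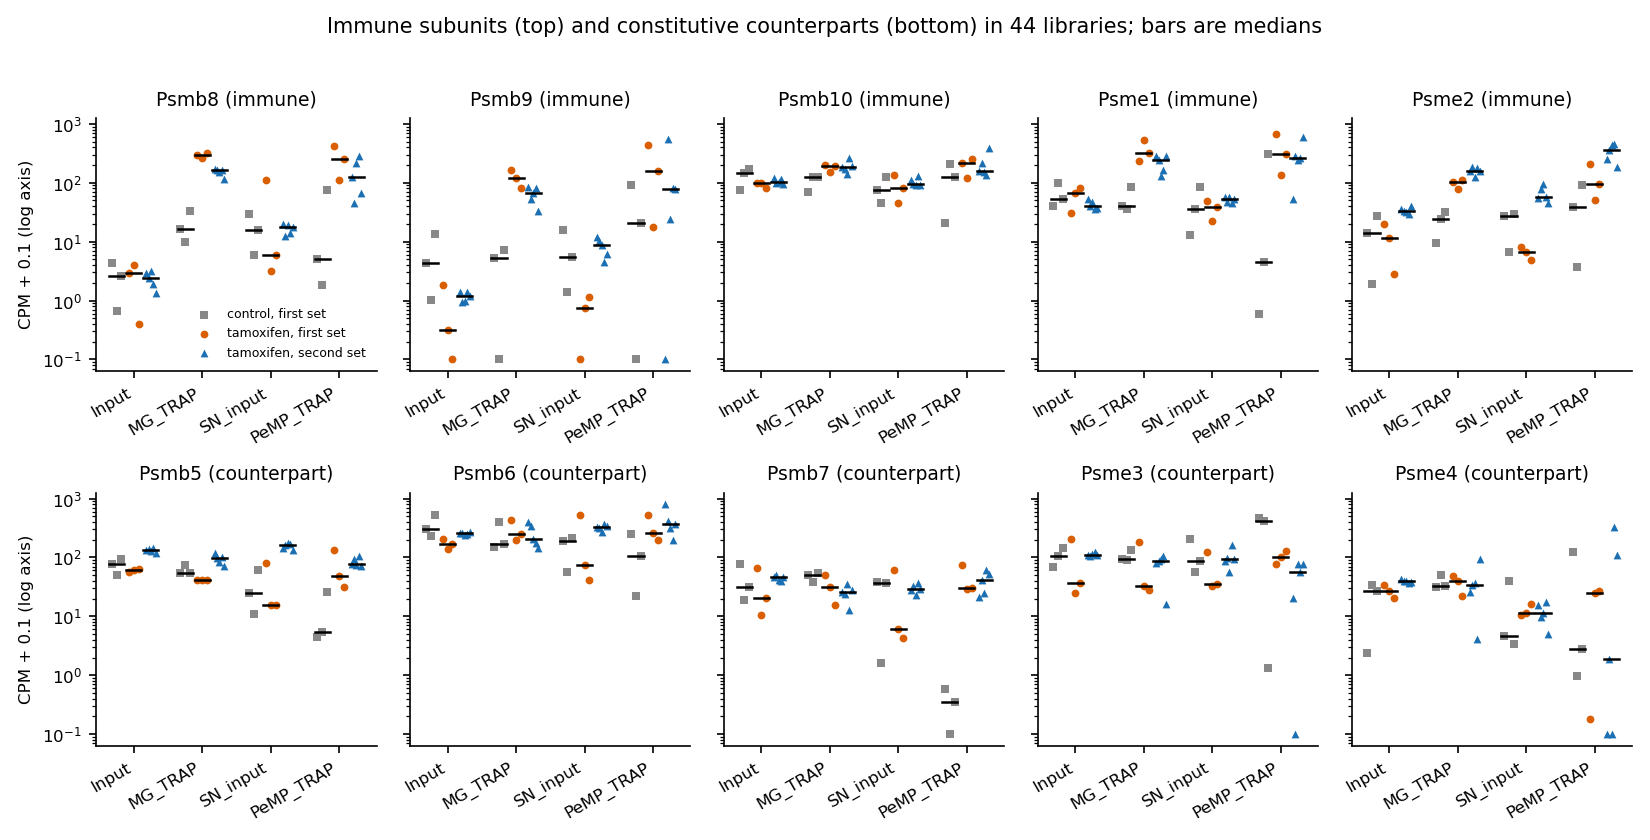
CPM with 0.1 added (y axis, log scale) of the 5 immune subunits (top) and 5 constitutive counterparts (bottom) in each of the 44 libraries, by fraction (x axis), treatment and set, with bars at the medians. Psmb8 in tamoxifen MG_TRAP lies between 115 and 325 CPM and in Input at 3.92 CPM or below, while Psmb6 ranges overlap between fractions.

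Psmb8 was already higher in the total RNA of the synaptosome fraction than in homogenate. Its median was 2.57 CPM in Input and 15.98 CPM in SN_input, and the fitted log2 difference, with TMM scaling, was 4.13 (SE 0.63, edgeR adjusted p = 2.66e-05), with SN_input higher in 7 of 8 letters. Psmb8 kept this call without any 1 replicate and lost it with the first set alone (4.99, edgeR adjusted p = 0.115). With the main settings it was the only member called of 49 (2.08% of all tested genes were higher and 0.465% lower). Psmb9 was at a median of 1.00 CPM in Input and 5.24 CPM in SN_input, and its log2 difference of 3.44 (SE 1.00) did not pass (edgeR adjusted p = 0.0506), though it did in 4 of 17 alternatives: no filter, voom, the compared groups alone and without replicate D. Psme2 (1.54, edgeR adjusted p = 0.105), Psmb10 (0.97, edgeR adjusted p = 0.270) and Psme1 (0.96, edgeR adjusted p = 0.410) did not pass either. The counterparts lay between -0.30 (Psme4) and 1.24 (Psmb6), and none passed. With total counts Psmb10 (-0.06) and Psme1 (-0.05) turned slightly negative. Groups did not overlap for 7 members that were lower in SN_input by CPM (Psmc1, Psmc3, Psmc6, Psmd1, Psmd5, Psmd14 and Psme4), where 9.78% of all genes did so, and for 0 that were higher (0.344%). Total counts in place of TMM moved the median of all genes by -1.05 on the log2 scale.

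The enrichment of Psmb8 by pulldown was compared between homogenate and synaptosome fraction with an interaction term. Enrichment from the synaptosome fraction was lower than from homogenate by a log2 difference of -3.43 (SE 0.81, edgeR adjusted p = 0.00529), and this passed in 13 of 14 alternatives. With the first set alone it was -4.12 and did not pass (edgeR adjusted p = 0.625, where 0 members were called), and with the second set alone it was -3.28 (edgeR adjusted p = 0.00119). Both were fitted after seeing the data. In the same test 10 of 11 microglial markers were lower (median -2.97, and 0 of 11 with the first set alone), as were 2 of 6 border macrophage, 2 of 4 choroid plexus, 1 of 8 neuronal and 1 of 7 oligodendrocyte markers, and their part in the value of Psmb8 was not tested. Psma8 gave -8.87 (SE 2.28, edgeR adjusted p = 0.00916), on counts that were 0 in most libraries. The interaction for the other immune genes was -1.49 (SE 1.27) for Psmb9, -0.12 (SE 0.56) for Psmb10, 0.09 (SE 0.64) for Psme1 and -0.01 (SE 0.67) for Psme2, none of which passed. Counterparts lay between -0.16 (Psme3) and 1.30 (Psme4) and did not pass. In this test 0 members were higher and 2 lower, and over all genes 0.388% were higher and 10.9% lower.

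Of the immune members, only Psme2 differed between the pulldowns by edgeR. Psmb8 had medians of 168 CPM in MG_TRAP and 169 CPM in PeMP_TRAP (log2 difference 0.70, SE 0.56, edgeR adjusted p = 0.411). Psme2 was higher in PeMP_TRAP, with medians of 144 and 231 CPM (1.53, SE 0.51, edgeR adjusted p = 0.0220). Psmb9 (1.95, SE 0.92), Psme1 (1.05, SE 0.46) and Psmb10 (0.84, SE 0.40) did not pass, and neither did Psmb5 (1.15), Psmb7 (1.43), Psme3 (0.58) or Psme4 (1.00). Among the others Psmb4 (1.75), the assembly chaperone Psmg1 (2.79), Psmd4 (1.24), Psmb3 (1.06) and the catalytic Psmb6 (1.35, edgeR adjusted p = 0.0151) were higher. Psmd6 (16.9 to 172 CPM in MG_TRAP) fell by 3.15 on the log2 scale. Psma8 was lower, with 435 reads over the 8 MG_TRAP libraries and 1 read over the 8 PeMP_TRAP libraries, a ratio of pooled CPM of 525 (95% exact interval 93.8 to 20799, counting error only), and of 252 without replicate D of MG_TRAP. The single PeMP_TRAP read was in replicate E. Counts were 6 higher and 2 lower of 49 (3.17% of all genes higher, 22.0% lower). No member's groups were free of overlap (0.0191% of genes higher, 2.54% lower). The balance of directions turned under several alternatives: 0 members were higher and 4 lower with total counts and without a filter, 1 and 4 with RLE scaling, 2 and 5 with DESeq2, 2 and 4 with the replicate block, 0 and 1 with voom, and 0 and 2 with the compared groups fitted alone. None passed with the first set alone. Total counts moved the median of all genes by -0.73 and RLE by -0.53 on the log2 scale. Without replicate G 3 members passed, without H 4, without I 5 and without J 4. Psme2 and Psmd4 passed in 4 of 17 alternatives, Psmb3 in 3, Psmg1 in 6, Psmb6 in 9, Psmd6 in 10 and Psmb4 in 12.

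Control mice show what the pulldown gives without tamoxifen. In control MG_TRAP, Psmb8 stood at 15.98, 9.88 and 33.6 CPM in replicates A, B and C, against 291, 258 and 325 CPM in first-set tamoxifen replicates D, E and F. Psme1 stood at 40.3, 36.2 and 84.4 CPM in control and at 233, 522 and 320 CPM with tamoxifen. Psmb9 stood at 5.27, 0 and 7.04 CPM against 165, 119 and 79.9 CPM. All 5 immune genes had more CPM in each tamoxifen library than in any control library, among 10 members higher and 7 lower without overlap (10.3% and 18% of all genes). With 3 against 3 libraries edgeR called 0 of 14771 genes (0.0%), so no member passed. Psmb8 had a log2 difference of 4.30 (SE 1.34, edgeR adjusted p = 0.210), Psmb9 of 5.18 (SE 1.70, edgeR adjusted p = 0.225), Psme1 of 3.18, Psme2 of 2.56 and Psmb10 of 1.15. The unadjusted p was under 0.05 for 4 members and 2351 genes in edgeR, and DESeq2 called 3 members (3.20% of genes higher, 2.73% lower) and limma voom 8 (11.3% and 10.3%). Counterparts were nearer 0: Psmb5 at -0.18, Psmb6 at 0.58, Psmb7 at -0.25, Psme3 at -0.17 and Psme4 at 0.28.

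Within controls, Psmb8 was 4.23, 0.553 and 2.49 CPM in Input, below its 9.88 to 33.6 CPM in MG_TRAP in all 3 letters. The log2 difference was 3.02 (SE 1.27, edgeR adjusted p = 0.589). With edgeR 0 members passed (0.0135% of genes higher, 0.0% lower) and 2 had an unadjusted p under 0.05, and DESeq2 called 0. Groups did not overlap for 2 members that were higher and 3 that were lower (6.25% and 6.01% of genes). Psma8, with 0, 0 and 123 reads in control MG_TRAP and none in control Input, and Psmb8 had the lowest p there. Psmb9 (-0.54), Psmb10 (-0.35), Psme1 (-0.35) and Psme2 (0.60) overlapped between control MG_TRAP and Input, and the counterparts lay between -0.54 (Psmb6) and 0.79 (Psme4). The test of whether enrichment differed between tamoxifen and control called no gene in MG_TRAP by edgeR (0.0%), with an unadjusted p under 0.05 for 3 members and 1357 genes. DESeq2 called 1 member higher in that test (0.704% of genes higher, 0.670% lower). The 2 members with the lowest p in it were Psmb9 (8.28, SE 2.31, edgeR adjusted p = 0.357) and Psmb8 (4.19, SE 1.75, edgeR adjusted p = 0.472). In that test Psmb10 was at 1.63, Psme1 at 3.19 and Psme2 at 2.87, and the counterparts lay between -0.08 (Psme4) and 1.56 (Psmb6). In total RNA of Input and SN_input no gene was called between treatments by edgeR (0.0%). In Input the immune genes and counterparts lay between -3.10 (Psmb9) and 0.35 (Psme4), and Psmb9 and the chaperone Psmd10 (-1.90) had the lowest p. In SN_input they lay between -2.52 (Psmb9) and 1.63 (Psmb8), and the core subunit Psma7 (1.54) and Psmb9 had the lowest p. Groups did not overlap for 0 members that were higher and 7 that were lower in Input (4.1% and 2.41% of genes), and for 0 and 6 in SN_input (0.995% and 19%). At an unadjusted p under 0.05 there were 0 members and 452 genes in Input, and 0 members and 495 genes in SN_input. DESeq2 called 0 members in both, where 0.244% of genes were higher and 0.0812% lower in Input, and 0.190% and 0.244% in SN_input.

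Control PeMP_TRAP varied widely. Psmb8 stood at 4.88, 1.77 and 73.8 CPM in replicates A, B and C, and at 422, 113 and 254 CPM in tamoxifen replicates D, E and F, a difference that did not pass (3.48, SE 1.29, edgeR adjusted p = 0.0668). It passed in 4 of 12 alternatives, namely RLE scaling, no filter, DESeq2 and without replicate C (7.32, edgeR adjusted p = 0.0158). Psme1 stood at 0.488, 4.43 and 308 CPM in control and overlapped with tamoxifen (2.05). Psmb9 (3.11), Psme2 (1.75) and Psmb10 (0.72) did not pass, and neither did Psmb5 (2.90), Psmb6 (1.95), Psme3 (-1.28) or Psme4 (-0.85). Psmb7 was called: it had 1, 0 and 1 reads in the 3 control libraries and 925, 71 and 22 reads with tamoxifen, a ratio of pooled CPM of 233 (95% exact interval 64.3 to 1926), and of 104 without tamoxifen replicate D. Psmg4, an assembly chaperone, had 0, 2 and 0 reads in control and 452, 211 and 188 with tamoxifen, a ratio of 195 (53.7 to 1610). For Psmg4 the ratio was 448 without tamoxifen replicate D and 85.4 without control replicate C, and both control reads were in replicate B. With edgeR these were the members called (2 higher, 0 lower, where 5.56% of genes were higher and 5.56% lower). Groups did not overlap for 12 members that were higher and 1 that was lower (10.3% and 5.65% of genes). Without replicate A 5 members passed, without C 4 and without F 1. DESeq2 called 10 members (13.1% of genes higher, 14.8% lower) and limma voom 0. In the control comparison of PeMP_TRAP with SN_input, 0 members passed by edgeR (0.0% of genes in both directions, unadjusted p under 0.05 for 2 members and 2577 genes). DESeq2 called 1 member higher and 1 lower there (3.01% of genes higher, 5.63% lower). Groups did not overlap for 1 member that was higher and 3 that were lower (1.1% and 19.8% of genes). Psmb7 and Psmg4, on the few PeMP_TRAP reads given above, had the lowest p. The immune genes lay between 1.10 (Psmb8) and 2.37 (Psmb9), and Psmb5, Psmb6, Psme3 and Psme4 between -0.89 (Psmb5) and 1.62 (Psme3). The difference of this enrichment between treatments gave 0 members by edgeR (0.914% of genes higher, 0.325% lower), with an unadjusted p under 0.05 for 4 members. DESeq2 called 1 member higher in it (6.75% of genes higher, 5.61% lower). The lowest p by edgeR was for Psmb7 (edgeR adjusted p = 0.0761) and Psmb9 (5.63, edgeR adjusted p = 0.146).

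Ratios within a library do not depend on scaling between libraries. Reads per kilobase of each immune subunit were set against its counterpart, as a description with no test. The log2 ratio of Psmb8 to Psmb5 had a median of -7.61 in tamoxifen Input, -1.11 in MG_TRAP, -4.77 in SN_input and -0.56 in PeMP_TRAP. Immune partners held a median of 19.03% of the per-length reads of the 3 catalytic pairs in tamoxifen Input (16.2% to 28.4%) and 47.3% in MG_TRAP (33.8% to 55.5%), so these groups did not overlap. In control MG_TRAP the share was 23.4%, 19.9% and 33.6% in the 3 replicates, within or near the 14.8% to 31.9% of control Input. In control PeMP_TRAP it was 21.4%, 87.3% and 54.2% in replicates A, B and C, against 29.1%, 40.4% and 29.1% in control SN_input. Replicate B thus lay above every tamoxifen library. Tamoxifen SN_input ranged from 14.8% to 54.5% (median 17.4%) and tamoxifen PeMP_TRAP from 19.9% to 64.0% (median 44.4%), and these overlapped. Most of the immune share in Input was Psmb10, which exceeded Psmb7 per kilobase of exon in every library. The median log2 ratio was 2.33 in tamoxifen Input and 3.81 in tamoxifen MG_TRAP. This depends on the length used: exons cover 1705 bases of Psmb10 and 3421 of Psmb7, but the longest coding transcripts 1311 and 1160. Per coding transcript, control Input replicate A (751 reads of Psmb10, 763 of Psmb7) had less Psmb10 than Psmb7. The mean of Psme1 and Psme2 over the mean of the 14 constitutive core subunits had a median log2 ratio of -2.01 in tamoxifen Input (-2.37 to -1.56) and 0.50 in MG_TRAP (0.05 to 1.02). It was -1.36 in SN_input (-2.96 to -0.71) and 0.83 in PeMP_TRAP (0.07 to 1.15), again without overlap. With the first set alone, PeMP_TRAP lay between 35.6% and 64.0% for the immune share and between 0.07 and 1.15 for the PA28 ratio. In control PeMP_TRAP the same ratio ran from -2.34 to 1.74.

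**Figure D4:**
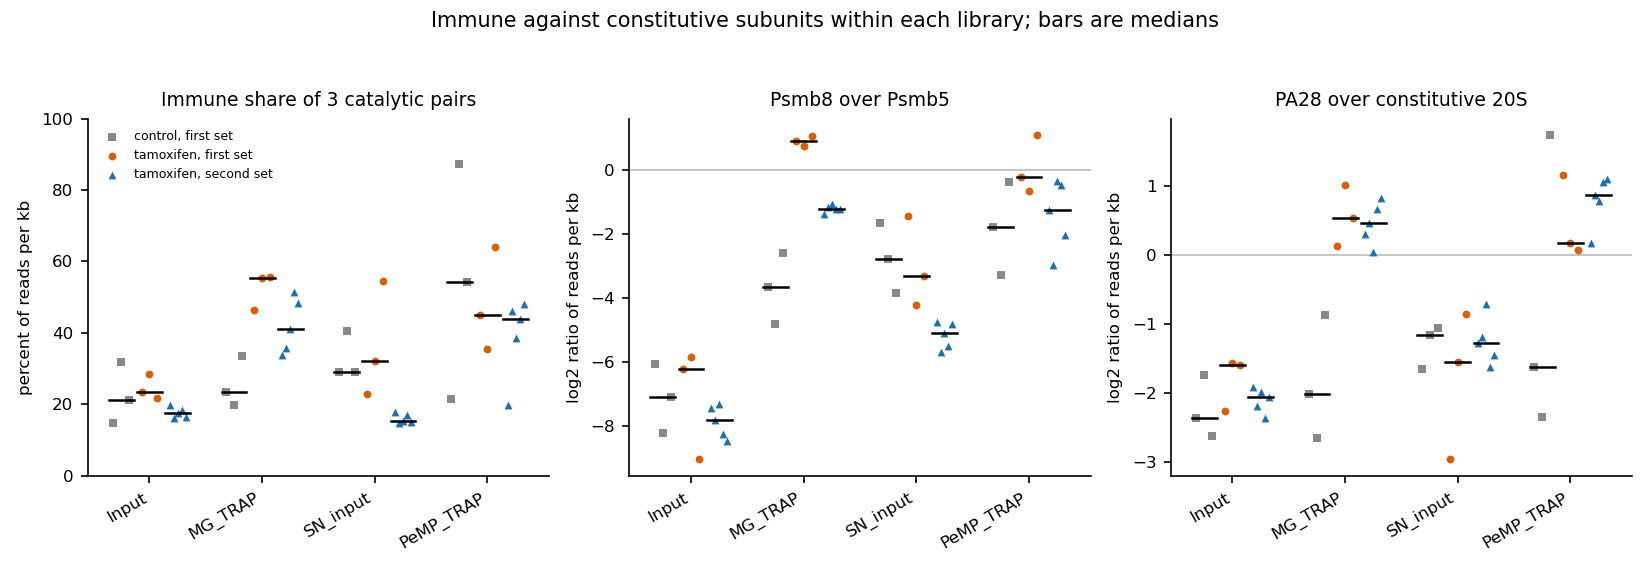
Immune against constitutive subunits within each of the 44 libraries by fraction (x axis), treatment and set, with bars at the medians: the immune share of the 3 catalytic pairs in percent of reads per kb, the log2 ratio of Psmb8 to Psmb5, and the log2 ratio of the PA28 genes to the core subunits. Tamoxifen MG_TRAP lies between 33.8% and 55.5% in the first panel and Input between 16.2% and 28.4%.

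These ratios were also read by set, again with no test. In MG_TRAP, the log2 ratio of Psmb8 to Psmb5 lay between 0.74 and 1.05 in the first set and between -1.39 and -1.06 in the second. The level of Psmb8 there was 258 to 325 CPM in the first set and 115 to 168 CPM in the second, without overlap. The level of Psmb5 there also split by set without overlap, in the other direction, being lower in the first set. In tamoxifen Input, Psmb5 was likewise lower in the first set without overlap. Reads aligned to more than 1 place made up 30.6% to 47.3% in first-set tamoxifen MG_TRAP and 13.2% to 15.3% in the second set. Their part in these values was not tested. In SN_input the immune share lay between 22.7% and 54.5% in the first set and between 14.8% and 17.7% in the second. The test of a set difference in enrichment called no gene in MG_TRAP (0.0%) by edgeR and no member by DESeq2, with 0 members and 1070 genes at an unadjusted p under 0.05, where Psma8 and Psme2b had the lowest p among members. For PeMP_TRAP it called 0 members higher and 2 lower (0.189% of genes higher, 14.9% lower). These were Psmd5, which was at 0 in all 5 second-set PeMP_TRAP libraries and so at least 112-fold lower there than its mean of 16.5 CPM in second-set SN_input (floor of 3 reads per library), and the base ATPase Psmc6 (-6.99, edgeR adjusted p = 0.0245), whose call was lost without replicate D, E or F. In that test 4 microglial, 2 border macrophage, 2 neuronal and 2 endothelial markers were lower too, and their part in these values was not tested. No immune gene passed in either set difference, and in PeMP_TRAP these lay between -4.25 (Psmb9) and -0.12 (Psmb10).

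The immune genes were then read against microglial markers. The summed CPM of 11 microglial markers (Cx3cr1, P2ry12, Tmem119, Csf1r, C1qa, C1qb, C1qc, Trem2, Fcrls, Sall1 and Siglech) lay between 177 and 368 for tamoxifen Input and between 16960 and 41120 for MG_TRAP. For SN_input it lay between 595 and 4971, and for PeMP_TRAP between 14200 and 61020. In control MG_TRAP it was 2523 to 7167. All 11 markers were higher in MG_TRAP than in Input and in PeMP_TRAP than in SN_input, and 10 were higher in SN_input than in Input. These counts were 10, 9 and 1 with the first set alone. Per 1000 CPM of these markers, Psmb8 had a median of 7.76 CPM in Input, 8.08 in MG_TRAP, 8.83 in SN_input and 6.51 in PeMP_TRAP, with ranges that overlapped among all 4 fractions. Psmb9 had medians of 3.72, 3.94, 2.65 and 3.38 CPM in the same order. Psmb10 instead had 381 CPM per 1000 in Input, 8.005 in MG_TRAP, 51.6 in SN_input and 9.30 in PeMP_TRAP. Psme1 had 156, 10.8, 25.9 and 12.9 CPM, and Psme2 had 109, 6.67, 24.7 and 10.04 CPM. In the first set alone, PeMP_TRAP had 4.83 to 11.7 CPM per 1000 for Psmb8, 0.741 to 7.24 for Psmb9, 3.48 to 11.4 for Psmb10, 5.76 to 14.03 for Psme1 and 2.14 to 4.41 for Psme2. In bulk RNA, more cells of a type and more RNA per cell cannot be told apart.

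**Figure D5:**
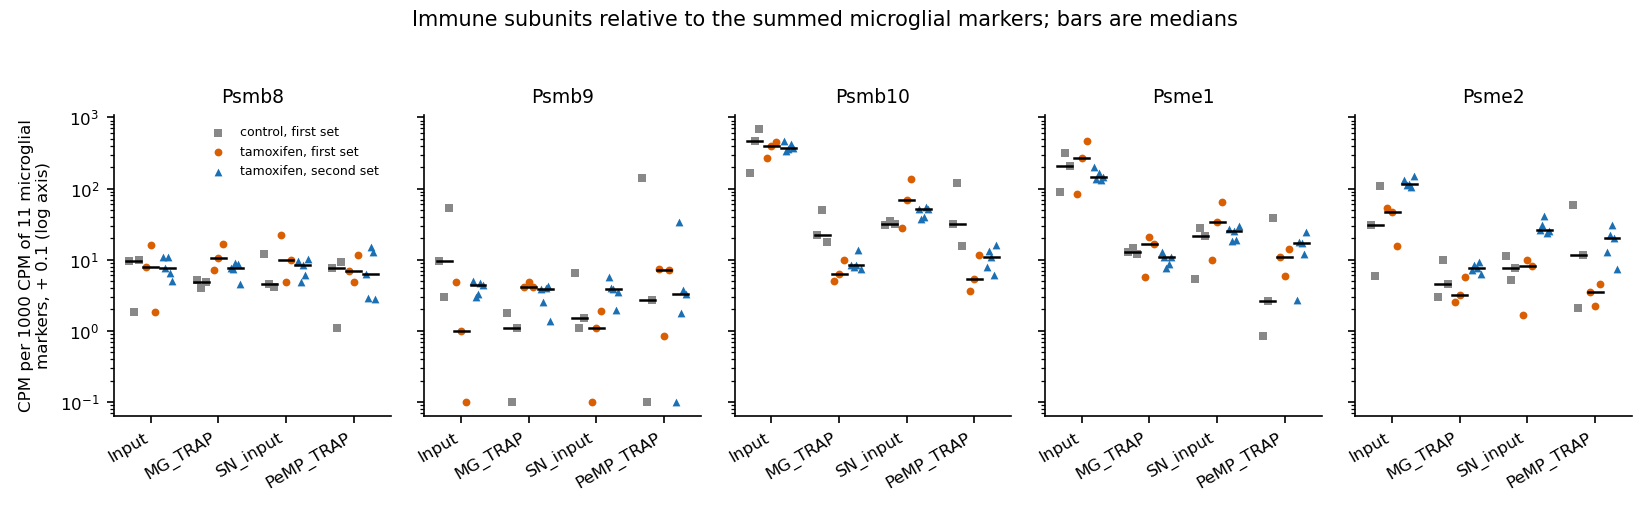
CPM of each immune subunit per 1000 CPM of 11 summed microglial markers, with 0.1 added (y axis, log scale), in each of the 44 libraries by fraction (x axis), treatment and set, with bars at the medians. Psmb8 ranges overlap in all fractions, while Psmb10 in tamoxifen Input lies between 266 and 464 and in MG_TRAP between 4.91 and 13.7.

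Markers of other cells also moved with the pulldown. Of 6 B and plasma cell markers, 4 were higher in MG_TRAP than in Input (summed 582 to 2333 CPM against 14.6 to 97.2 CPM) and 5 were higher and 1 lower in PeMP_TRAP than in SN_input, with Cd79a at 0 in every tamoxifen PeMP_TRAP library (summed 119 to 3512 CPM against 6.14 to 313 CPM). Of 6 border macrophage markers, 2 were higher in MG_TRAP (55.2 to 219 CPM against 1.91 to 21.4 CPM), 2 were lower in PeMP_TRAP than in SN_input (0 to 214 CPM against 17.1 to 31.1 CPM), and Cd163 and F13a1 were at 0 in every tamoxifen PeMP_TRAP library. In MG_TRAP against Input, 2 of 8 neuronal, 1 of 7 astrocyte, 2 of 7 oligodendrocyte and 1 of 4 choroid plexus markers were lower. In PeMP_TRAP against SN_input, 7 of 8 neuronal, 4 of 7 astrocyte, 7 of 7 oligodendrocyte and 3 of 4 choroid plexus markers were lower, where 26.1% of all genes were lower, and 1 of 5 tested endothelial markers was higher and 2 were lower. In SN_input against Input, 3 astrocyte, 3 oligodendrocyte and 1 of 6 border macrophage markers were higher. Most of these calls were lost with the first set alone. Then 2 of 4 tested B and plasma cell markers were higher in each pulldown and 1 oligodendrocyte marker was lower in MG_TRAP, and no other of these markers passed in any comparison of fractions. Between PeMP_TRAP and MG_TRAP, 3 microglial markers were higher and 1 lower, 2 border macrophage and 3 neuronal markers were lower, 2 B and plasma cell markers were higher and 1 lower, and 2 choroid plexus markers were higher and 2 lower. There 1 astrocyte and 1 oligodendrocyte marker were also higher and 1 endothelial marker was lower, with none of these lists called in the first set alone. Endothelial markers summed to 331 to 1949 CPM in control PeMP_TRAP and 0 to 348 CPM with tamoxifen, and 2 of 5 tested were lower in the comparison that called Psmb7 and Psmg4. In that comparison 8 of 11 microglial and 2 B and plasma cell markers were also higher, and 3 of 8 neuronal, 3 of 7 oligodendrocyte and 1 of 7 astrocyte markers were lower. B cells and border macrophages express immunoproteasome genes, and their part in the values of Psmb8, Psmb9, Psmb10, Psme1 and Psme2 was not tested, nor was that of the other markers in any member.

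Genes that work with the proteasome were read from a list of 41 genes without a Psm symbol, of which 40 were tested. In MG_TRAP against Input, 7 were higher and 0 lower (4.67% and 2.15% of all genes): 1 of 12 associated proteins, 0 of 13 ubiquitin and delivery genes, 2 of 6 transcription factors and 4 of 9 genes of class I peptide handling. B2m, the light chain of MHC class I, went from a median of 94.7 to 2231 CPM (4.85, edgeR adjusted p = 2.01e-12). Irf8, a myeloid transcription factor, went from 10.1 to 421 CPM (5.61), and the class I heavy chain H2-D1 from 59.6 to 857 CPM (4.35). Pomp, the chaperone that completes the core, was the associated protein that passed (1.70, edgeR adjusted p = 0.00376), and it is named after its value was seen. In PeMP_TRAP against SN_input, 8 were higher (6.15% of all genes), among them B2m (2.78), H2-D1 (3.27) and H2-K1 (3.42), and 2 were lower (26.1%), the shuttle Ubqln1 (-3.20) and the ubiquitin-activating enzyme Uba6, which was at 1.35 CPM or below in every tamoxifen PeMP_TRAP library. SN_input against Input gave 4 higher and 0 lower (2.08% and 0.465%), among them B2m (2.05), H2-K1 (2.86) and Irf8 (2.15). Between PeMP_TRAP and MG_TRAP, H2-K1 (1.94) was higher and Uba6 was lower. The enrichment of B2m (-2.07) and Irf8 (-2.76) was lower from the synaptosome fraction than from homogenate, as for Psmb8. With the first set alone, 4 of these 40 genes were higher in MG_TRAP against Input (2.51% of all genes) and 3 in PeMP_TRAP against SN_input (2.40%), which were B2m (3.82), H2-K1 (4.02) and Tap1, and none passed in SN_input against Input, PeMP_TRAP against MG_TRAP or the synaptosome difference. Tap1, the peptide transporter beside Psmb9, did not pass in any of these 4 comparisons between fractions (3.01, SE 1.72 in MG_TRAP against Input) with both sets, and passed in PeMP_TRAP against SN_input with the first set alone (edgeR adjusted p = 0.0187). Between tamoxifen and control, 0 passed in MG_TRAP, and in PeMP_TRAP Pomp (2.95) and B2m (2.57) were higher and Uba6 was lower. In the set difference of PeMP_TRAP enrichment, Tap1, Uba6 and the regulator Zfand5 were lower in the second set.

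The authors' deposited table lists 49 of the members in 3 comparisons. At a false discovery rate under 0.05 in the authors' deposited table, 6 members were higher and 0 lower in MG_TRAP against Input (6.96% and 2.44% of its 13634 genes). The 6 members were Psmb8 (7.30), Psmb9 (6.28), Psme1 (2.90), Psme2 (3.36), Psme2b (4.69) and Psma8 (8.72), as log2 fold changes in the authors' deposited table. In that deposited table of the authors, Psmb8 alone was higher in SN_Input against Input (7.89, where 1.18% of genes were higher and 0.198% lower). There, 7 members were higher and 0 lower in PeMP_TRAP against SN_Input (9.60% and 8.27% of genes), again in the authors' deposited table.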

How the data were processed

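The libraries were SMART-Seq v4 cDNA of total or TRAP RNA, and the labels do not say what a replicate letter stands for. The submitters' processing notes list FastQC 0.11.7, Trimmomatic 0.38, Bowtie2 2.3.5, STAR 2.7.0d, HTSeq 0.9.1 and edgeR. The genome build and strand setting are not given in the sources used here. The deposited files hold whole-number read counts per gene as the authors counted them, with 54146 gene IDs in the first set and 55359 in the second, of which 50714 are shared and were used. The authors' deposited table for the first set holds log2 fold changes, and FDR values (adjusted p-values) beside them, whose samples are not named in it. Another 24 columns of per-sample values there were not used.

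Symbols came from GENCODE M21. Libraries held 740679 to 35427238 reads on the shared genes, the total used for CPM, so 3 counts equal 0.0847 to 4.05 CPM. Intervals and floors cover counting error only, since PCR copies are not marked.

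Tests used edgeR 4.0.16 (quasi-likelihood, TMM, filterByExpr with a minimum count of 10, Benjamini-Hochberg over all genes tested, threshold 0.05) in R 4.3.3. The 32 tamoxifen libraries were fitted with fraction and set, the 24 first-set libraries with 8 groups, and set differences with fraction by set. Of the 50 members 49 were tested. Alternatives were RLE, total counts, no filter, DESeq2 1.42.0, limma 3.58.1 (voom with quality weights), the compared groups alone, each set alone, a replicate block and each replicate left out. Ratios within a library added 0.5 reads. A ratio per longest coding transcript and the synaptosome difference within each set were alternatives chosen after seeing the data. The fits were tested on simulated data. Values outside the fits were computed with Python 3.11.15, pandas 2.3.3 and SciPy 1.17.1, and plotted with matplotlib 3.10.9.

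The immune genes and their counterparts were named in every comparison, with up to 4 other members and 3 genes of the related list in each direction by adjusted p, or the 2 members with the lowest p where none passed. Some listed genes are not reported here and were left out of the summed markers and of the related list. The members, lists and rules were chosen with earlier results of these data known. The main tests did not pair libraries by letter, because the labels do not say what a letter stands for, and counts of letters are descriptions. Deviations of same-letter libraries correlated with r over 0.1 in at most 3 of 11 letters per fraction pair. The own letter still correlated best in 8 of 11 letters for MG_TRAP with Input and for SN_input with Input. It did so in 7 for PeMP_TRAP with MG_TRAP and in 5 for PeMP_TRAP with SN_input.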

Additional observations from a re-analysis of the deposited data

Results flagged for a closer look

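In 64 groups of 4 to 10 libraries checked for a single library far from the others (Dixon's criterion, which chance meets in about 1 of 20 groups), 8 had one. Replicate D of SN_input had 0 counts of Psmb9, which gave a log2 ratio of Psmb9 to Psmb6 of -13.838, set by the 0.5 reads added. Its ratio of the PA28 genes to the constitutive core subunits (-2.9597) was also the lowest of that group. Replicate G of PeMP_TRAP had 0 counts of Psmb9 in the deepest library, and a ratio of -16.755 by the same rule. Replicate F of SN_input had an immune share of 54.468% of the 3 catalytic pairs, where the other tamoxifen SN_input libraries reached 32.121%. Psme1 in replicate E of SN_input (4.5251 on the log2 scale of CPM with 0.5 added) and Psme3 in replicate H of PeMP_TRAP (-1.0 on that scale, 0 counts) were the lowest of their groups. Psme4 was lowest in replicate J of MG_TRAP (2.1626) and in replicate K of SN_input (2.4389).

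In 4 members an effect differed between groups by an interaction test. Enrichment by pulldown was lower from the synaptosome fraction than from homogenate for Psmb8 (-3.4299) and Psma8 (-8.8652). Enrichment in PeMP_TRAP was lower in the second set than in the first for Psmc6 (-6.9928) and Psmd5 (-12.105). The fitted values of Psma8 and Psmd5 depend on the small number of reads added in the fit, because 1 arm of each was at or near 0.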

How the results depend on the processing

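Counts of called members are given, with the reported count first. For MG_TRAP against Input (6), fitting the compared groups alone gave 10 (14.1% of all genes higher, 9.18% lower) and the first set alone 2. For PeMP_TRAP against SN_input (10), no filter gave 5, the compared groups alone 6 and the first set alone 1. For PeMP_TRAP against MG_TRAP (8, of which 6 higher), RLE gave 5 (1 higher), no filter 4, total counts 4, voom 1 and the compared groups alone 2 (0 higher in each), and the first set alone 0. The shares of all genes under these settings are given with that comparison above. For SN_input against Input (1), no filter gave 2, voom 9 (8.89% of all genes higher, 6.12% lower), the compared groups alone 12 (11.7% and 7.31%), the first set alone 0 and the second set alone 2. For tamoxifen against control, MG_TRAP (0) went to 3 with DESeq2 and 8 with voom, and PeMP_TRAP (2) to 4 with no filter, 10 with DESeq2, 0 with voom and 0 with the compared groups alone. Control PeMP_TRAP against SN_input (0) gave 2 with DESeq2 (3.01% of all genes higher, 5.63% lower). Both differences of enrichment between tamoxifen and control (0) gave 1 with no filter and 1 with DESeq2. With no filter, 0.0646% of all genes were higher and 0.0108% lower in the MG_TRAP difference, and 1.55% and 0.452% in the PeMP_TRAP difference. With DESeq2 these shares were 0.704% and 0.670%, and 6.75% and 5.61%. The synaptosome difference (2) gave 0 with the first set alone, chosen after seeing the data. The cause of these shifts was not tested. Leaving out 1 replicate gave 5 to 6 for MG_TRAP against Input, 7 to 10 for PeMP_TRAP against SN_input, 3 to 11 for PeMP_TRAP against MG_TRAP, 1 to 3 for SN_input against Input (3 without replicate D), 2 to 2 for the synaptosome difference, 1 to 5 for tamoxifen against control in PeMP_TRAP (1 without F, 5 without A, 4 without C) and 1 to 6 for the set difference of PeMP_TRAP (1 without E or F, 6 without G). Every other comparison stayed at 0. With the replicate block the counts were 5, 9, 6 (2 higher, 4 lower) and 1 for the 4 tamoxifen comparisons of fractions, 2 for the synaptosome difference and 0 in controls. The letters are not stated to pair libraries, and own-letter libraries correlated best in 8, 5, 7 and 8 of 11 letters for the same 4 comparisons. Of the values for single members, 1 changed sign with a call in the main fit or the alternative. This was Psmb5 in PeMP_TRAP against SN_input, which went from 0.03 to -0.99 with the second set alone and was called there. Changes of sign without a call also occurred, as for Psmb10 and Psme1 in SN_input against Input with total counts. Psmb8 and Psmb9 passed in MG_TRAP against Input under all 17 alternatives. At the shallowest depth, 4.05 CPM was the level of 3 counts, so 0 counts there do not show absence.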
